A study of Rattus norvegicus with 6 samples.

Results

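The genes described here are 9 that mark contractile cells of the vessel wall, namely smooth muscle cells and pericytes: Myh11, Acta2, Tagln, Cnn1, Rgs5, Smtn, Lmod1, Mylk and Cspg4. They were picked by name, and table entries were taken where the symbol matched, ignoring case. This found 8 of the 9 names among 27217 genes. Acta2 was not analysed here. RNA sequencing had been done on 3 samples of RCS cells, a line derived from a cartilage tumour (chondrosarcoma) of the rat, and on 3 samples of neonatal rat rib. No treatment, strain or genotype is given for either group. The replicates are described as biological without the cultures or animals they came from, so p-values measure the spread between these libraries, which may be partly technical.

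Smooth muscle contracts when calcium and calmodulin activate myosin light chain kinase, which phosphorylates the light chains of smooth muscle myosin so that it can pull on actin. Calponin, smoothelin, transgelin and leiomodin bind actin filaments and tune or build them. Pericytes are related cells wrapped around capillaries, known by the signalling regulator Rgs5 and the surface proteoglycan NG2, the product of Cspg4. In many of these genes serum response factor binds a motif called the CArG box, with myocardin as its partner in smooth muscle. Rib contains vessels as well as cartilage, bone and skeletal muscle, whereas a cell line in culture has none.

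The table has 1 start per gene, and the promoters shown are those of the 5 measured genes for which the RefSeq promoter table of GRCr8 has an entry. Rgs5, Mylk and Cnn1 were at or near 0 in RCS cells, and Smtn and Cspg4 had many reads in both groups. Each promoter runs 5′ to 3′ from 250 bases before to 50 bases after the annotated start. Capitals mark the GC box (GGGCGG, both strands) and the MCAT motif (CATTCC, both strands), the binding motifs of Sp-type and TEAD factors.
Rgs5, chr13:84380827-84381126, GRCr8, plus strand: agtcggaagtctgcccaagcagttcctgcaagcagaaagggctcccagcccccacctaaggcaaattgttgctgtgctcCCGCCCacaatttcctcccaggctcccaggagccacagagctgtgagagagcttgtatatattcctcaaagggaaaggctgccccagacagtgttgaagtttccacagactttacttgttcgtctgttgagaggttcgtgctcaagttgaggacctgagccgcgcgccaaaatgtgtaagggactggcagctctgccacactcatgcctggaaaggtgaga
Mylk, chr11:79498525-79498824, GRCr8, minus strand: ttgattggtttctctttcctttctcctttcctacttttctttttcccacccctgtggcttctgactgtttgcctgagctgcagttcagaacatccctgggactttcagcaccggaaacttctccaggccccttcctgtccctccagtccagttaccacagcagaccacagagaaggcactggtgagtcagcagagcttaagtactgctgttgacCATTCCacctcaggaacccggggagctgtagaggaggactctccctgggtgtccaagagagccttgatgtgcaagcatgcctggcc
Cnn1, chr8:28908187-28908486, GRCr8, plus strand: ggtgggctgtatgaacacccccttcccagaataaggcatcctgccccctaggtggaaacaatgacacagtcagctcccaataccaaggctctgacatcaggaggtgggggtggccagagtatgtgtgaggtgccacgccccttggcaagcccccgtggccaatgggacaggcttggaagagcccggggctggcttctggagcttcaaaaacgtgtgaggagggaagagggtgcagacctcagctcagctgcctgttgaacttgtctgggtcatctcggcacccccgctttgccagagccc
Smtn, chr14:82644465-82644764, GRCr8, minus strand: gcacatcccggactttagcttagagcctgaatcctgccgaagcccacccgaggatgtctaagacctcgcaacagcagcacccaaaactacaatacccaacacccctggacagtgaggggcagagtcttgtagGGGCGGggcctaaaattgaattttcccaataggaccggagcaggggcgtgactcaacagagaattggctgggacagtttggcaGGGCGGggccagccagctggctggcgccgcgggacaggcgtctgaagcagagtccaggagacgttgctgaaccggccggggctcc
Cspg4, chr8:66160692-66160991, GRCr8, plus strand: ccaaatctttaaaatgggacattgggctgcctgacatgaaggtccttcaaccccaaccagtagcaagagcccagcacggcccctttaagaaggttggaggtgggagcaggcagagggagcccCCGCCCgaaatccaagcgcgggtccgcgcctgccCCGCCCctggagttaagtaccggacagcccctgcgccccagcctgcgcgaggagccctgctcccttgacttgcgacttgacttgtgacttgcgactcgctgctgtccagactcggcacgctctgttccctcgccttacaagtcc

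The Smtn and Cspg4 windows hold 2 GC boxes each, the Rgs5 window 1, and the Mylk and Cnn1 windows none. A GC box was found in 33.1% of the 33465 promoters of the table. CpG dinucleotides number 15 in Smtn and 18 in Cspg4, against 7 in Rgs5, 6 in Cnn1 and 2 in Mylk. The median promoter of the table has 7 and the middle 50% lie between 3 and 19, so all but Mylk are inside that range. The Mylk window has the only MCAT match of these 5, a motif present in 14.2% of promoters. None of the 5 windows has a CArG box, found in 1.64% of promoters, or a CArG-like motif with 1 G or C in its core, found in 9.42%. Bases outside the windows and other starts of these genes were not searched. Which form of Mylk or Smtn begins at the start shown was not examined. The Acta2 promoter has a pair of CArG-like motifs, CCCTATATGG and CCTTGTTTGG. These matches are descriptions of the letters in these windows, and a link between them and the levels was not tested.

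Levels are log2(normalized count + 1), where a normalized count is a read count scaled by 1 factor per library, and differences are RCS cells minus rib tissue. Counts were taken as not divided by gene length, an inference from the low values, so a level is compared between groups and never between genes. Libraries held an estimated 5320000 to 8520000 reads on genes, and any normalized count not above 1 appears as 0. Over all 16809 genes tested, 43.6% were lower and 32.9% higher in RCS cells at an adjusted p under 0.05 in limma (Benjamini-Hochberg). Of the genes called, 43.0% were the higher ones with the values as deposited, a share of 61.9% after quantile normalization and 53.3% after median scaling. These scalings moved the median difference by 0.47 and 0.29 towards RCS cells, and cyclic loess moved it by 0.18. Cartilage markers were read in both groups: of 6, 2 were higher in RCS cells (4 with quantile normalization or cyclic loess), 1 was lower and 3 were neither. Col2a1, the main cartilage collagen, was at 13.76 ± 0.33 in RCS cells and 16.37 ± 0.54 in ribs (SD, n = 3). That difference of -2.62 was -0.60 under quantile normalization and -1.51 under cyclic loess.

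All 8 measured genes had lower values in RCS cells, but they split into 3 patterns. Rgs5, Mylk, Cnn1 and Lmod1 were at or near 0 in RCS cells. Myh11 and Tagln had a smaller but clear number of reads there, 15.2-fold and 17.9-fold below rib tissue. Cspg4 and Smtn had many reads in both groups, 2.92-fold and 1.59-fold below. The call of lower expression was made for 8 of 8 in limma, against 43.6% of all tested genes, and every rib library lay above every RCS library for 8 of 8, against 44.5% of all tested genes. The 8 passed the filter on low values, but Rgs5, Mylk, Cnn1 and Lmod1 passed it only through the rib libraries, and Rgs5 and Cnn1, at 0 in RCS cells, could not come out higher. The counts are therefore not read as evidence about the group. Their median difference was -4.30 (-4.18 with Rgs5 and Cnn1 set at the limit of listing), beside -0.15 over all tested genes. In whole tissue, fewer cells of a type and less RNA per cell cannot be told apart.

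**Figure D1:**
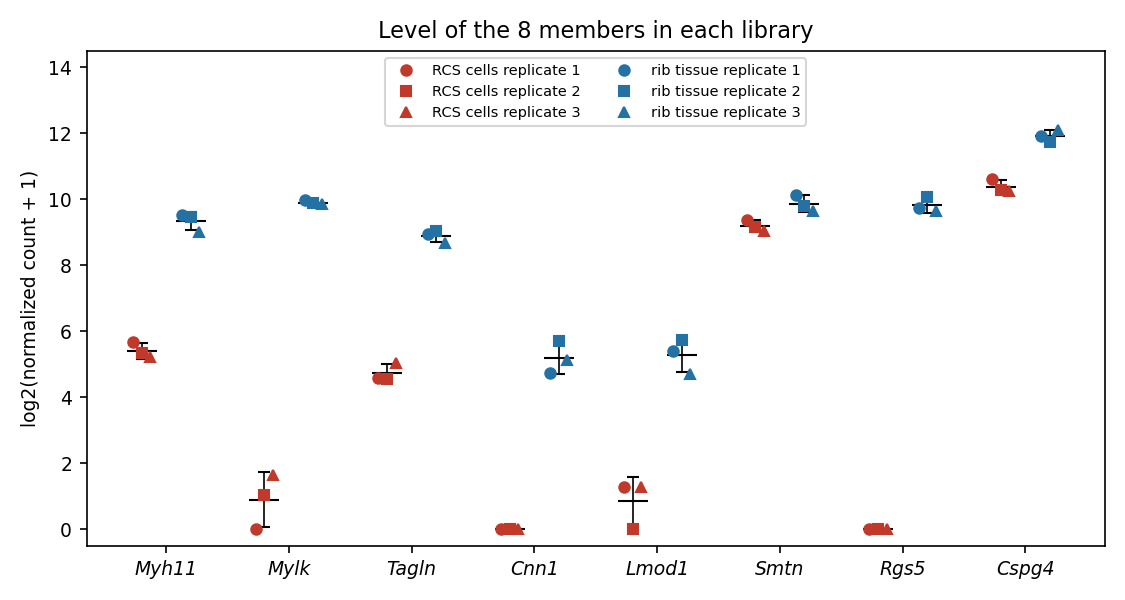
Level of each of the 8 measured genes, as log2(normalized count + 1), in the 3 RCS libraries (red) and 3 rib libraries (blue). Symbols mark the replicate, and bars give the mean and SD. Rgs5 and Cnn1 are at 0 in every RCS library, while Cspg4 and Smtn have many reads in both groups.

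Myh11 encodes the heavy chain of smooth muscle myosin, the motor of the contractile apparatus (ENSRNOG00000000029). Its normalized counts were 49.8, 39.1 and 36.2 in the RCS libraries (replicates 1 to 3, in that order here and below) and 741, 698 and 516 in the rib libraries. The lowest rib library was 3.35 log2 units above the highest RCS library. Levels averaged 5.40 ± 0.23 and 9.33 ± 0.28, a difference of -3.93 (SE 0.17, 95% interval -4.33 to -3.53), with a limma adjusted p of 3.3e-07. Over 15 alternatives the difference lay between -4.16 and -3.41. The RCS values rested on about 51.1 to 91.5 reads per library, far above the limit of listing. Nde1, a neighbour of Myh11 in GRCr8 whose span there does not overlap it, was at 8.09 to 8.17 in RCS cells and 7.61 to 7.77 in ribs, and whether its reads reached Myh11 was not tested.

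Mylk encodes myosin light chain kinase, made in a smooth muscle form and in a longer form found in other cells (ENSRNOG00000002215). RCS cells replicate 1 was listed at 0, and replicates 2 and 3 had normalized counts of 1.04 and 2.13, or about 2.0 and 3.0 reads. The rib libraries had 998, 937 and 919. The rib libraries stood close together, with a range of 0.12 log2 units, the narrowest of the 8 genes. The difference was -9.00 (SE 0.38, 95% interval -9.88 to -8.13), with a limma adjusted p of 2.6e-07, and 0.958% of tested genes had a more negative one. The size rests on the added count, at -6.45 with 10 added and -10.55 with 0.1 added, and it was -7.69 under quantile normalization. No fold is given for a group with so few reads. Annotated long noncoding RNAs and a pseudogene overlap Mylk in GRCr8, and the use of strand in counting is not given in the sources used here.

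Tagln encodes transgelin (SM22), an actin-binding protein abundant in contractile smooth muscle (ENSRNOG00000017628). Normalized counts were 23.0, 22.6 and 31.7 in RCS cells, whereas ribs had 493, 528 and 408. The groups were separated by 3.64 log2 units at their nearest libraries. The difference was -4.16 (SE 0.17, 95% interval -4.56 to -3.77), with a limma adjusted p of 2.3e-07. It lay between -4.34 and -3.49 over the same alternatives. As with Myh11, the low RCS level was a measured one, at about 42.2 to 44.8 reads per library.

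Cnn1 encodes calponin 1, which binds actin and damps the myosin ATPase (ENSRNOG00000027736). All RCS libraries had it at 0, and it had normalized counts of 25.8, 51.3 and 34.0 in rib replicates 1 to 3. Even in ribs it rested on only about 34 to 50 reads per library, so its size is less firm than that of Rgs5. The level in ribs was 5.19 ± 0.49. The fitted difference of -5.19 (SE 0.32) had a limma adjusted p of 2.0e-06. It depends on the added count of 1, at -8.48 with 0.1 added and -2.20 with 10 added, and was -3.08 under quantile normalization and -3.23 under cyclic loess.

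Lmod1 encodes leiomodin 1, which starts new actin filaments in smooth muscle (ENSRNOG00000007185). Normalized counts were 1.40, 0 and 1.42 in RCS cells, whereas ribs had 40.9, 51.9 and 25.2. The RCS values equal at most about 2.58 reads. The rib libraries differed by 1.02 log2 units, the widest rib range of the 8 genes. The difference was -4.43 (SE 0.44), with a limma adjusted p of 3.1e-05. It was -2.25 under quantile normalization, -2.63 under cyclic loess and -2.14 with 10 added to each count. An annotated long noncoding RNA overlaps Lmod1 in GRCr8, and whether its reads reached Lmod1 was not tested.

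Smtn encodes smoothelin, a cytoskeletal protein of contractile smooth muscle whose gene gives several forms (ENSRNOG00000019451). Its normalized counts in RCS cells were 668, 569 and 528 in replicates 1 to 3. The rib libraries had 1130, 894 and 800. The groups did not overlap, but the lowest rib library was only 0.26 log2 units above the highest RCS library, the smallest gap of the 8 genes. Levels averaged 9.20 ± 0.17 and 9.86 ± 0.25, a difference of -0.67 (SE 0.14, 95% interval -1.0 to -0.34), with a limma adjusted p of 0.0026. Of tested genes, 38.7% had a more negative difference. The call held in each of 15 alternatives, and median scaling took the difference to -0.38 (limma adjusted p 0.040).

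Rgs5, a regulator that shortens G-protein signalling, is among the most selective pericyte genes (ENSRNOG00000002730). It was listed at 0 in every RCS library, where a listed 0 allows at most 1.84, 1.93 and 1.41 reads in replicates 1 to 3. Its normalized counts in rib replicates 1 to 3 were 859, 1080 and 794. This was the widest separation of the 8 genes: the lowest rib level was 9.63. The fitted difference was -9.82 (SE 0.21), with a limma adjusted p of 1.4e-08, and 0.512% of tested genes had a more negative one. The size varied with the added count, from -6.51 with 10 to -13.14 with 0.1.

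Cspg4 encodes NG2, a membrane proteoglycan of pericytes that is also made by other cells, among them glial precursors and some cartilage and tumour cells (ENSRNOG00000017208). Normalized counts were 1574, 1230.5 and 1220.0 in RCS cells, whereas ribs had 3887, 3424 and 4428. Reads were plentiful in both groups, at about 1721 to 2893 per RCS library. Levels averaged 10.38 ± 0.21 and 11.93 ± 0.19, a difference of -1.55 (SE 0.14, 95% interval -1.86 to -1.23), with a limma adjusted p of 1.4e-05. Under quantile normalization the difference was -0.95. Cimap1c, which overlaps Cspg4 in GRCr8, was at 4.96 to 5.28 in RCS cells and 3.35 to 3.49 in ribs.

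**Figure D2:**
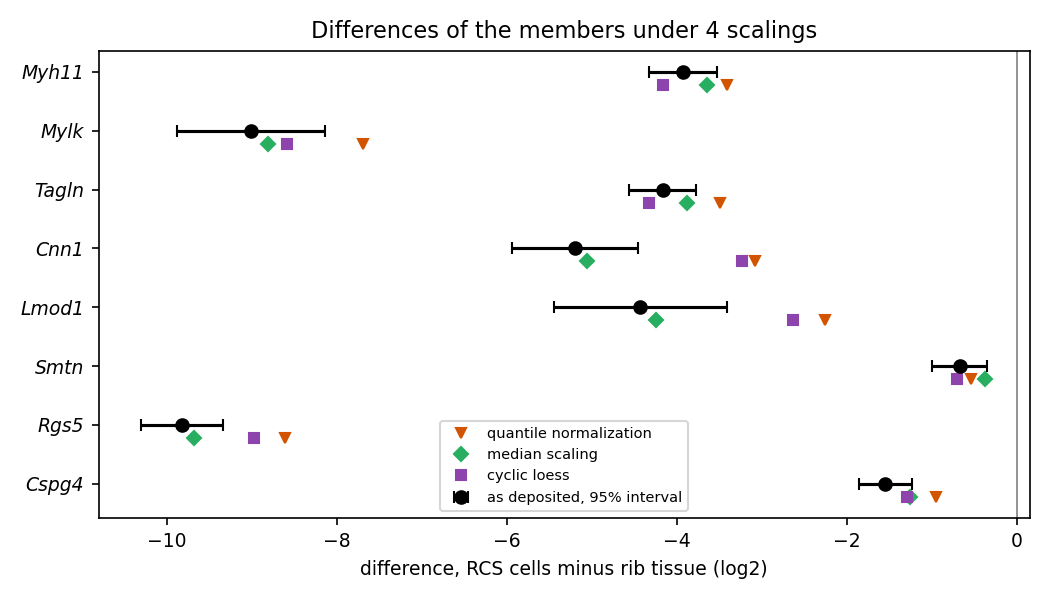
Difference of each gene between RCS cells and rib tissue (log2, horizontal axis), with 95% intervals for the values as deposited and with 3 other scalings as coloured symbols. All lie below 0, from -9.82 for Rgs5 to -0.67 for Smtn, and quantile normalization moves Cnn1 and Lmod1 to -3.08 and -2.25.

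The rib libraries did not order all 8 genes alike. Rib replicate 3 was the lowest of the 3 for 6 genes (Myh11, Mylk, Tagln, Lmod1, Smtn and Rgs5). The exceptions were Cnn1, lowest in rib replicate 1, and Cspg4, lowest in rib replicate 2 and highest in rib replicate 3. Myh11, Mylk and Smtn were highest in rib replicate 1, and Tagln, Cnn1, Lmod1 and Rgs5 in rib replicate 2. Markers of other cells varied among the same libraries. Summed normalized counts of 9 skeletal muscle markers were 27327, 25444 and 16728 in rib replicates 1 to 3, those of 10 endothelial markers were 4473, 5201 and 3392, and those of 6 chondrocyte markers were 134810, 75986 and 125690. Most of the chondrocyte sums came from Col2a1, at 112920, 55595 and 97595. The part of these cell types in the order of the 8 genes was not tested.

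Most markers of 4 other cell types were also called lower in RCS cells, unlike the chondrocyte markers, beside 43.6% of all tested genes. Markers at 0 in every RCS library could not come out higher. Skeletal muscle markers were lower in RCS cells for 9 of 9, with summed normalized counts of 161 to 190 in RCS cells and 16728 to 27327 in ribs. Myh3 was at 1.45 ± 0.70 and 12.65 ± 0.34, Neb at 2.78 ± 0.41 and 12.82 ± 0.33, and the myogenic factors Myog and Myod1 were listed at 0 in every RCS library. Endothelial markers were lower for 9 of 10 (10 of 10 without rib replicate 3), at 695 to 720 against 3392 to 5201. Most of the RCS sum came from Vwf, at 8.72 ± 0.11 and 8.92 ± 0.37 in ribs (limma adjusted p 0.32), and Egfl7, 1.84-fold lower in RCS cells. Of the list, 5 were listed at 0 in every RCS library, including the vascular cadherin Cdh5 (9.49 ± 0.31 in ribs) and the VEGF receptor Kdr (9.38 ± 0.32). Fibroblast markers were lower for 7 of 8, at 764 to 788 against 37692 to 68206, with Dcn listed at 0 in every RCS library (10.20 ± 0.07 in ribs) and Col3a1 909-fold lower. Thy1, the exception, made up most of the RCS sum and was at 9.17 ± 0.02 and 9.12 ± 0.17 (limma adjusted p 0.65). Schwann and oligodendrocyte lineage markers were lower for 5 of 5 tested, at 146 to 189 against 1034 to 1561, and Olig2 was listed at 0 in all 6 libraries. Sox10 was at 1.34 ± 0.06 in RCS cells and 5.93 ± 0.26 in ribs, and Pmp2 at 1.60 ± 0.70 and 5.42 ± 0.20. The sum of the chondrocyte markers was lower too, at 36070 to 51146 in RCS cells against 75986 to 134810 in ribs. Col2a1, the only one called lower (6.13-fold), made up most of the rib sum, at 112920, 55595 and 97595 in replicates 1 to 3. In RCS cells Col2a1 was at 16801, 14707 and 10780, so the sum does not stand for the other markers. Of the chondrocyte markers, Matn1 was 3.25-fold and Comp 1.40-fold higher in RCS cells, with Matn1 at 2.59 and Comp at 1.38 log2 units under quantile normalization. The Comp call was lost without RCS cells replicate 1 or 2 or rib replicate 1 or 2. Skeletal muscle and fibroblasts can express several contractile genes, and their part in the differences was not tested.

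The relatives of the 9 genes, Acta2 included, within their protein families were compared next, since many have forms outside smooth muscle. Of 23 relatives tested, 16 were lower in RCS cells, 3 higher and 4 neither, beside 43.6% lower and 32.9% higher over all tested genes. The 23 include Actb, Actg1, Acta1 and Actc1, relatives of Acta2, whereas Rgs4 was counted with the pericyte genes. Among the 23, 6 were at 0 in every RCS library and could not come out higher. Tagln2 also passed the filter on low values only through the rib libraries. Quantile normalization gave 6 higher and median scaling 5, and 1 was higher without RCS cells replicate 2 or without rib replicate 3. Among the myosins, Myh9, the broadly expressed nonmuscle heavy chain, differed by -0.28 (95% interval -0.58 to 0.02, limma adjusted p 0.081), the sign turned under quantile normalization and median scaling, and without rib replicate 3 it was called lower (-0.38). Myh10, another nonmuscle heavy chain, was 5.03-fold lower, and Myh14 differed by 0.48 (0.00 to 0.97), called higher under 5 alternatives. The log2 level of Myh11 minus that of Myh9 was -4.68, -4.89 and -4.81 in RCS cells and -1.17, -0.99 and -1.26 in ribs, without overlap.

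Calponins went in different directions. Cnn2, a calponin of many cell types, was 1.64-fold higher in RCS cells (difference 0.71, SE 0.09, limma adjusted p 0.00015), and it was called higher in each of 15 alternatives. Cnn3, also widespread, was 1.28-fold lower, at 9.62 ± 0.02 and 9.98 ± 0.08, a call lost under median scaling (-0.063). RCS cells thus had many reads of both while Cnn1 was listed at 0. The transgelins showed another order. Tagln2, the widespread relative, was listed at 0 in RCS cells replicates 1 and 3 and was at 9.17 ± 0.36 in ribs, a difference of -8.82 (SE 0.34), or -5.82 with 10 added to each count. Tagln3, a neuronal relative with few reads in both groups, differed by 0.77 (SE 0.69, limma adjusted p 0.33) and passed the test after quantile normalization (2.68) or cyclic loess (2.99). Without rib replicate 2 its difference was 0.0053. The log2 level of Tagln minus that of Tagln2 was 4.58, 3.53 and 5.03 in RCS cells and -0.40, -0.35 and -0.079 in ribs, so that the fall of Tagln2 was the larger in every pair of libraries.

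Among smoothelin relatives, Smtnl1 was 1.79-fold lower in RCS cells (-0.84, or -0.55 under median scaling), and Smtnl2 was at 1.83 ± 0.16 and 8.13 ± 0.49. The log2 level of Smtn minus that of Smtnl1 overlapped between the groups, at 0.70 to 1.25 in RCS cells and 0.69 to 0.83 in ribs. The leiomodins of striated muscle, Lmod2 (listed at 0 in every RCS library) and Lmod3 (difference -4.75, SE 0.37), were lower in RCS cells like Lmod1. Of the tropomodulins, which cap the slow-growing end of actin filaments, Tmod1 was 6.48-fold lower and Tmod2 was listed at 0 in every RCS library. Tmod3, the widespread form, was 1.16-fold higher (limma adjusted p 0.044), a call lost in 8 of 15 alternatives. The kinases of striated muscle, Mylk2 (8.86 ± 0.65 in ribs) and Mylk3 (4.53 ± 0.59), stood at 0 in all RCS libraries. In the family of Rgs5, Rgs4 and Rgs16 were listed at 0 in every RCS library, whereas Rgs2 (2.65-fold lower, a call lost under quantile normalization) and Rgs3 (1.90-fold lower) were detected in both groups.

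**Figure D3:**
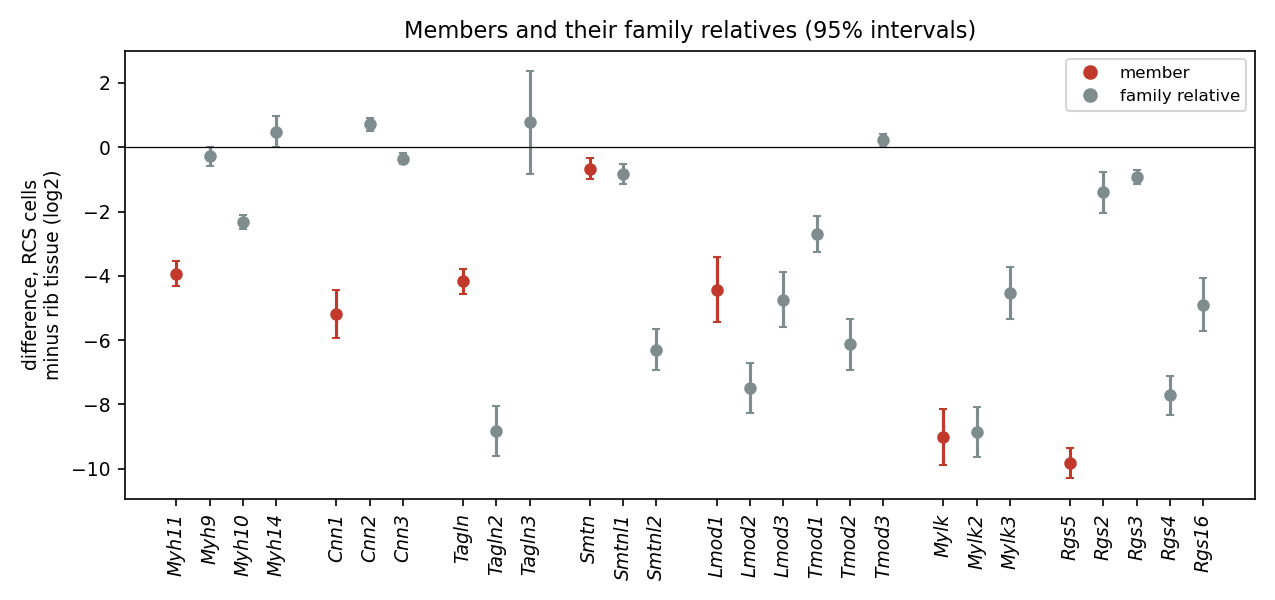
Difference between RCS cells and rib tissue (log2, vertical axis) for 7 of the 8 genes (red, "member") and their family relatives (grey), with 95% intervals. Cspg4 has no relative in the list. Cnn2 lies above 0 at 0.71 and Cnn1 far below, and Tagln2 lies below Tagln.

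Further genes of the contractile programme were read from the same fit by list, set beside the median difference of -0.15 over all tested genes. The shares of all tested genes called were 43.6% lower and 32.9% higher. Of 22 other contractile and cytoskeletal genes tested, 20 were lower in RCS cells, 1 higher and 1 neither, with a median of -2.15. Among these 22, 3 were at 0 in every RCS library and could not come out higher. Itga8 also passed the filter on low values only through the rib libraries. Tpm2, a tropomyosin, was at 2.0 ± 0.59 in RCS cells and 10.56 ± 0.47 in ribs, and the integrin gene Itga8 was at 0.89 ± 0.83 and 9.33 ± 0.32. Des, the intermediate filament protein desmin of all muscle types, was 29.9-fold lower. Csrp2, a LIM protein gene known from smooth muscle, was 1.96-fold higher (difference 0.97, SE 0.15). Tpm2 and Des are shared with skeletal muscle, so they do not stand for smooth muscle alone. A second gene of the list was higher under quantile normalization.

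Of 22 other pericyte genes, 20 were lower in RCS cells, 1 higher and 1 neither, beside 43.6% lower and 32.9% higher over all tested genes. Of these 22, 8 had no value above 0 in RCS cells, which left no way to come out higher. Those 8, and with them Anpep, Foxs1 and Gja4, passed the filter on low values only through the rib libraries. The median was -5.57, or -5.54 with those 8 set at the limit of listing. The receptor Pdgfrb, through which endothelial cells recruit pericytes, was 53.9-fold lower, at 4.51 ± 0.17 and 10.27 ± 0.06. Notch3, which sustains mural cells, was 51.2-fold lower, at 5.06 ± 0.25 and 10.73 ± 0.28. The subunits of the pericyte potassium channel, Kcnj8 (7.60 ± 0.39 in ribs) and Abcc9 (9.92 ± 0.35), were listed at 0 in every RCS library, as was the guanylate cyclase subunit Gucy1a1 (8.23 ± 0.43). Tbx18, a transcription factor of mural progenitors, went the other way and was 3.11-fold above ribs, at 7.42 ± 0.14 and 5.79 ± 0.44. Quantile normalization gave 2 higher genes.

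**Figure D4:**
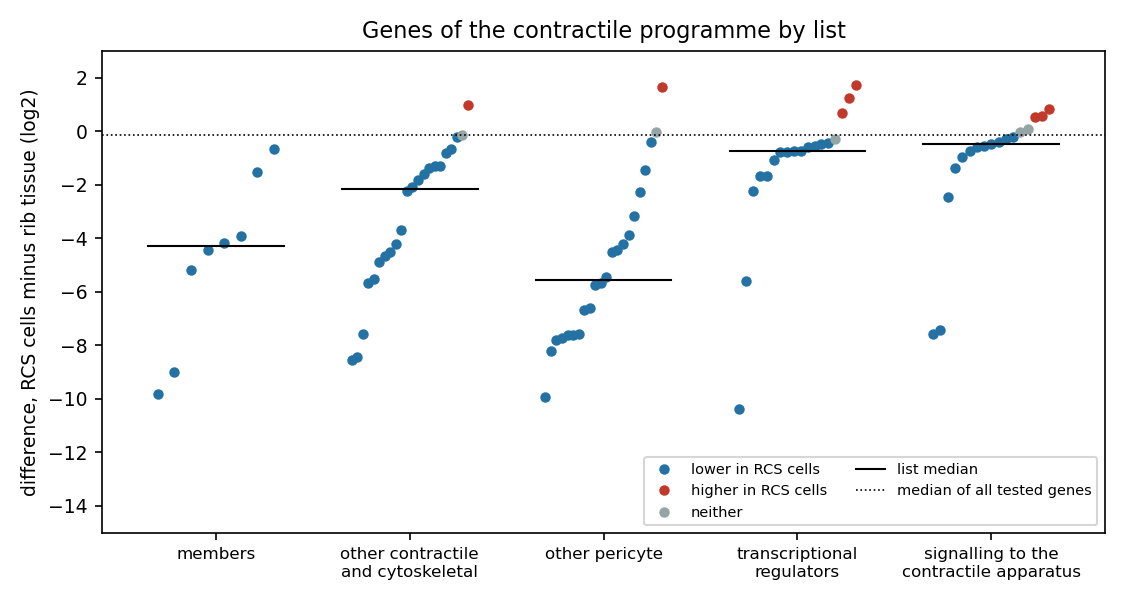
Difference between RCS cells and rib tissue (log2, vertical axis) for the 8 genes ("members") and each tested gene of 4 further lists, sorted within a list. Colours give the limma call, bars the list median and the dotted line the median of all tested genes (-0.15).

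Of 18 genes for transcriptional regulators of smooth muscle genes, 14 were lower in RCS cells, 3 higher and 1 neither, with a median of -0.75. All tested genes were 43.6% lower and 32.9% higher. Among the 18, 2 were at 0 in every RCS library and could not come out higher. Myocd, encoding myocardin, the smooth muscle partner of serum response factor, stood at 0 in all RCS libraries and at 5.61 ± 0.24 in ribs. Srf itself was higher in RCS cells, at 9.61 ± 0.04 against 8.95 ± 0.32 (1.58-fold, difference 0.66, SE 0.15, limma adjusted p 0.0033), and was called so in each of 15 alternatives. Of the widespread partners, Mrtfa was 1.37-fold and Mrtfb 1.52-fold lower, the Mrtfa call being lost under median scaling (-0.16), where Mrtfb was at -0.31. Prrx1, a mesenchymal homeobox factor, stood at 0 in all RCS libraries and at 10.37 ± 0.21 in ribs. Gata6, a factor of visceral and vascular smooth muscle, was 2.37-fold higher in RCS cells (6.35 ± 0.20 against 5.11 ± 0.69), with a difference of 1.24, or 2.49 under quantile normalization. Foxf1, a factor of visceral mesenchyme, was higher at low levels, at 3.59 ± 0.21 against 1.87 ± 0.23.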

How the data were processed

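RNA was sequenced in 3 libraries of RCS cells and 3 of rib tissue. The authors deposited log2 values in 1 table of 27217 genes. The low values of each library fell on multiples of 1 step, so they were read as log2 of a count divided by 1 factor per library, although the table's name carries RPKM. The step gave the depth. Between 38.7% and 55.6% of values of at most 10 reads lay within 0.01 of a whole read (chance gives 2%), so no count model was used. CASAVA 1.8, DESeq and rn5 are named, with no role, in the submitters' processing notes. Neither the aligner nor the counting rule is given in these sources.

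The deposited values were turned back to normalized counts, a listed 0 being kept as 0. The test used limma 3.58.1 (R 4.3.3) on log2(normalized count + 1) (two-sided, intensity trend, Benjamini-Hochberg over all 16809 genes with at least 1 in at least 3 of 6 libraries), after a test on simulated data. A fold is given where both groups averaged at least 10, and it understates changes of low genes. The fit was repeated under 15 alternatives. Genes and lists were chosen with earlier results of these data known. Of 154 list names, 145 matched by symbol, 3 by an older symbol, 3 by Entrez identifier and 3 had no match. Where a gene had several entries, the one with the highest mean was read. Myh9 and Lmod2 had 2 entries each. Genes named besides the 9 were the 2 most raised and 2 most lowered called genes of each list, Srf, Myocd, Mrtfa, Mrtfb, Pdgfrb, Notch3, Kcnj8, Des, Col2a1 and family relatives. Myog, Myod1, Olig2, Vwf, Egfl7, Thy1, Cimap1c, Nde1, Ppp1r12a, Anpep, Foxs1, Gja4, Actg1 and Actg2 were named after their values were seen. Promoters came from RefSeq (GRCr8), with entries for 5 of the 8 genes in the table and for Acta2.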

Additional observations from a re-analysis of the deposited data

How the results depend on the processing

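The 8 contractile genes were all called lower in RCS cells under each of the 15 alternatives. These were 3 scalings, 2 added counts, 2 filters, array weights, the replicate block and leaving out each of 6 libraries. Rgs5 and Cnn1, at 0 in every RCS library, could not come out higher, and Mylk and Lmod1 passed the filter only through the rib libraries. Over all genes, 7324 were lower and 5536 higher as deposited, against 4924 and 8000 under quantile normalization. The count of 8 is therefore not read as evidence about the group. Of 943 values of named genes under the alternatives, 913 kept their direction and their side of the threshold, 19 lost the call, 9 gained it and 2 turned sign. Those 2 were Myh9 at 0.019 under quantile normalization and 0.014 under median scaling. The 5 further lists of contractile, pericyte, regulator, signalling and family genes hold 103 measured genes, not all of them tested. Of these, 11 were called higher and 82 lower, beside 32.9% and 43.6% of all tested genes. Under quantile normalization 17 were higher and 72 lower, beside 8000 and 4924 of all 16809 tested genes. Genes of these lists at 0 in every RCS library could not come out higher. For these results the cause was not tested. The replicate numbers are shared by the groups, but deviations of same-numbered libraries correlated at 0.064, -0.076 and 0.047, and not every library correlated best with its own number. With the replicate block, 5536 genes were higher and 7340 lower, against 5536 and 7324 without it, and the block changed no call of the 8 genes, while among the relatives Myh9 was called lower (adjusted p 0.024), Myh14 higher (adjusted p 0.011) and the Tmod3 call was lost (adjusted p 0.076). Cnn1 and Lmod1 had few reads even in ribs, and a listed 0 allows up to 1.93 reads.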

Other observations

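Of 17 tested genes that carry signals to the contractile apparatus, 12 were lower in RCS cells, 3 higher and 2 neither, with a median of -0.48. All tested genes were 43.6% lower and 32.9% higher. Among the 17, 1 was at 0 in every RCS library and could not come out higher. Under quantile normalization and under median scaling 8 were lower and 4 higher. Cacna1c, the voltage-gated calcium channel of smooth and cardiac muscle, was at 1.53 ± 0.40 in RCS cells and 9.09 ± 0.10 in ribs. Agtr1a, an angiotensin receptor, stood at 0 in all RCS libraries and at 7.41 ± 0.47 in ribs. The G-protein genes Gna11 and Gna13 were 1.77-fold and 1.49-fold higher in RCS cells (Gna13 at 0.57, or 0.87 under median scaling). The third gene that was higher was Ppp1r12a, the targeting subunit of myosin phosphatase, which undoes the work of the kinase (difference 0.53, limma adjusted p 0.00045).

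Actin genes are similar in coding sequence, so their values are uncertain where reads match several copies. The striated muscle actins had the most negative differences of the 5 measured actins, with Acta1 at 2.57 ± 0.63 in RCS cells and 12.42 ± 0.65 in ribs and Actc1 listed at 0 in every RCS library. Actg2, the actin of visceral smooth muscle, had levels of 1.90, 1.35 and 3.02 in RCS cells and 6.54, 6.71 and 6.53 in ribs. Actb, the cytoplasmic actin, was 1.46-fold higher in RCS cells (difference 0.54, limma adjusted p 0.020, and 1.43 under quantile normalization), a call lost without RCS cells replicate 1 or 2 or rib replicate 2 or 3. Actg1 was higher by a factor of 1.36 without passing the test (limma adjusted p 0.10).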
